A study of Mus musculus with 9 samples.

Results

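The mRNAs of 3 factors that act at the entry into meiosis, Stra8, Meioc and Ythdc2, were followed through 9 RNA-seq libraries of mouse male germ cells. The genes were taken by name, 3 of the 24505 rows of the count table, and each of them had enough counts for testing in every comparison. All mice carried the Uchl1-eGfp transgene, in which the Uchl1 promoter drives EGFP (bright in spermatogonia, dim in preleptotene spermatocytes), on a C57BL/6 background outcrossed with CD-1. All had also received WIN 18,446, an inhibitor of retinoic acid (RA) synthesis, at 100 µg per g of body weight from postnatal day (P)1 (until P11 per the sample records, P10 per the methods), followed at P11 by 10 µl of RA at 10 µg per µl under the skin. The 3 groups, of 3 libraries each, were intermediate and type B (In/B) spermatogonia taken at P17, preleptotene (PL) spermatocytes taken at P19 after WIN 18,446 had been stopped (RA-sufficient), and PL spermatocytes of the same age from mice kept on WIN 18,446 (RA-deficient). Cells were sorted by EGFP from pooled testes of several littermates, so a library is a pool and not a mouse.

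STRA8 is a nuclear protein that RA induces in germ cells, and with its partner MEIOSIN it activates genes of meiotic prophase. MEIOC and YTHDC2 act on RNA in the cytoplasm: YTHDC2 is an RNA helicase with a YTH domain, a fold that binds N6-methyladenosine, and MEIOC is its meiosis-specific partner. The MEIOC and YTHDC2 complex, with RBM46, lowers mitotic transcripts such as that of cyclin A2, and germ cells that lack one of these proteins enter prophase and then return to a mitosis-like division.

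RA acts through receptors that bind pairs of half-sites in DNA, and the PL groups differ in RA synthesis, so the promoter windows of the RA target Stra8 and of Meioc are shown for comparison. Each runs from 250 bases before to 50 bases after the RefSeq start of the gene. The RefSeq sequences (table of build GRCm38.p6) were found unchanged in the mm9 genome, the build of the counts, at chr6:34870698-34870997 for Stra8 and chr11:102526649-102526948 for Meioc, both on the + strand. Capitals mark RA receptor half-sites.
Stra8: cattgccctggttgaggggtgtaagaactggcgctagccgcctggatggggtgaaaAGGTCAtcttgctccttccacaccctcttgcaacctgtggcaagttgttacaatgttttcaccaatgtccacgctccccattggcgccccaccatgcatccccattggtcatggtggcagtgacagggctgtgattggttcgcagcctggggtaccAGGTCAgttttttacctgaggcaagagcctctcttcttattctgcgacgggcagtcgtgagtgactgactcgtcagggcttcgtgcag
Meioc: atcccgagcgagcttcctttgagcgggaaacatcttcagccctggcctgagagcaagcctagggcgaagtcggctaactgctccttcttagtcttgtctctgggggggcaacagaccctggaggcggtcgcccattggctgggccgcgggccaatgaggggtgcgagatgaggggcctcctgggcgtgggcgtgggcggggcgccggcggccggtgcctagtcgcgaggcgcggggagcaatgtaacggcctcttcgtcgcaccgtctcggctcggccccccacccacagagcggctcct
The half-sites searched, on both strands, were AGGTCA and the related spellings AGTTCA, with T as the third letter, GGGTCA, with G as the first, and GGTTCA, with both. The Stra8 window held 2 copies of AGGTCA, whose first bases lay at -194 and -38 from the start, and the Meioc window held none. Both windows lie downstream of the gene starts in the GENCODE M1 annotation (34870163 for Stra8, 102525030 for Meioc). The matches therefore hold for the RefSeq starts only. At least 1 half-site was present in 43.7% of all 32851 windows of this length and at least 2 in 13.1%. A direct repeat of half-sites with a spacer of 1 to 5 bases was in neither window, and was found in between 0.0396% and 0.268% of all windows, depending on the spacer. The motif CNCCTCAG, associated with STRA8 and searched on both strands, was in neither window and in 7.94% of all. The GC content was 55.7% for Stra8 and 68.3% for Meioc.

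Between 12612959 and 27042274 reads per library were counted on genes, and each factor had at least 973 counts in each library. In every group 1 library stood apart from the other pair. The chi-square of counts over genes, per degree of freedom, was 6.15 between In/B replicates 2 and 3, against 35.8 and 40.3 for replicate 1. In RA-sufficient PL it was 10.7 between replicates 2 and 3, against 42.6 and 59.4 for replicate 1. In RA-deficient PL it was 19.8 between replicates 1 and 2, against 107.1 and 107.7 for replicate 3. The summed level of 12 Sertoli cell markers was 84.8 to 415 CPM in In/B, 3361 to 4437 CPM in RA-sufficient PL and 355 to 621 CPM in RA-deficient PL (CPM, counts scaled to the library size after TMM), and all 12 were called higher in RA-sufficient PL than in In/B and lower in RA-deficient than in RA-sufficient PL. Their defining members Sox9, Amh and Wt1 were at 53.2 to 64.2, 12.7 to 19.5 and 144 to 203 CPM in RA-sufficient PL. Of 5 germ cell markers, Ddx4 was at 396 to 540 CPM in all 9 libraries, and the others changed more between the groups. Uchl1, whose promoter drives the EGFP used for sorting, was at 2352 to 3657 CPM in In/B. It was at 425 to 613 CPM in RA-sufficient PL and 991 to 1885 CPM in RA-deficient PL. In the same order, Tex101 was at 216 to 552, 1259 to 2207 and 2121 to 2397 CPM. Mael was at 338 to 347, 412 to 474 and 574 to 685 CPM, and Dazl is given below. The summed level of 11 pachytene markers was 1877 CPM in RA-sufficient PL replicate 1 against 878 and 789 CPM in the others, and 696 CPM in RA-deficient PL replicate 3 against 266 and 273 CPM. The part of these differences in the values below was not tested.

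Stra8 had the widest spread of the 3 factors within each group, and its level separated libraries within groups rather than the groups. It was at 54.4, 165 and 150 CPM in In/B replicates 1, 2 and 3. RA-sufficient PL replicates 1, 2 and 3 had 444, 126 and 121 CPM. RA-deficient PL replicates 1, 2 and 3 had 377, 365 and 81.5 CPM. High Stra8 was thus seen in 1 RA-sufficient and 2 RA-deficient libraries, the other 3 PL libraries lay within the range of In/B, and all groups overlapped. The highest library exceeded the lowest by 3.03 times in In/B, 3.68 times in RA-sufficient PL and 4.62 times in RA-deficient PL. In bulk samples, fewer cells that express a gene and less of its RNA per cell cannot be told apart.

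The group means of Stra8 were 123 ± 59.8, 230 ± 185 and 275 ± 167 CPM (SD, n = 3) in In/B, RA-sufficient PL and RA-deficient PL, an order in which no neighbours differed beyond their spread. The log2 fold change was 0.97 (SE 0.55, 95% interval -0.30 to 2.23) in RA-sufficient PL against In/B, with an adjusted p of 0.155 from edgeR's quasi-likelihood test. For RA-deficient PL against In/B it was 1.34 (SE 0.59, interval -0.02 to 2.69), with an adjusted p of 0.113 in edgeR. In RA-deficient against RA-sufficient PL it was 0.22 (SE 0.70, interval -1.41 to 1.85), with an adjusted p of 0.840 in edgeR, so a difference of more than 2-fold in either direction lies within the interval.

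Single libraries decided these values of Stra8. Without RA-sufficient PL replicate 1, the log2 fold change against In/B was 0.06, and without RA-deficient PL replicate 3 that of RA-deficient PL against In/B was 1.77, with an edgeR adjusted p of 0.00588. Between the PL groups it ran from -0.10, without RA-sufficient PL replicate 3, to 1.18, without RA-sufficient PL replicate 1. With the library that stood apart left out of each group, which was decided after the values were seen and leaves pairs of libraries, the log2 fold changes were -0.34, 1.42 and 1.61 for RA-sufficient PL against In/B, RA-deficient PL against In/B and RA-deficient against RA-sufficient PL. The edgeR adjusted p were then 0.00264, 4.32e-06 and 6.27e-05. The first of these has the opposite sign from the value with all libraries.

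**Figure D1:**
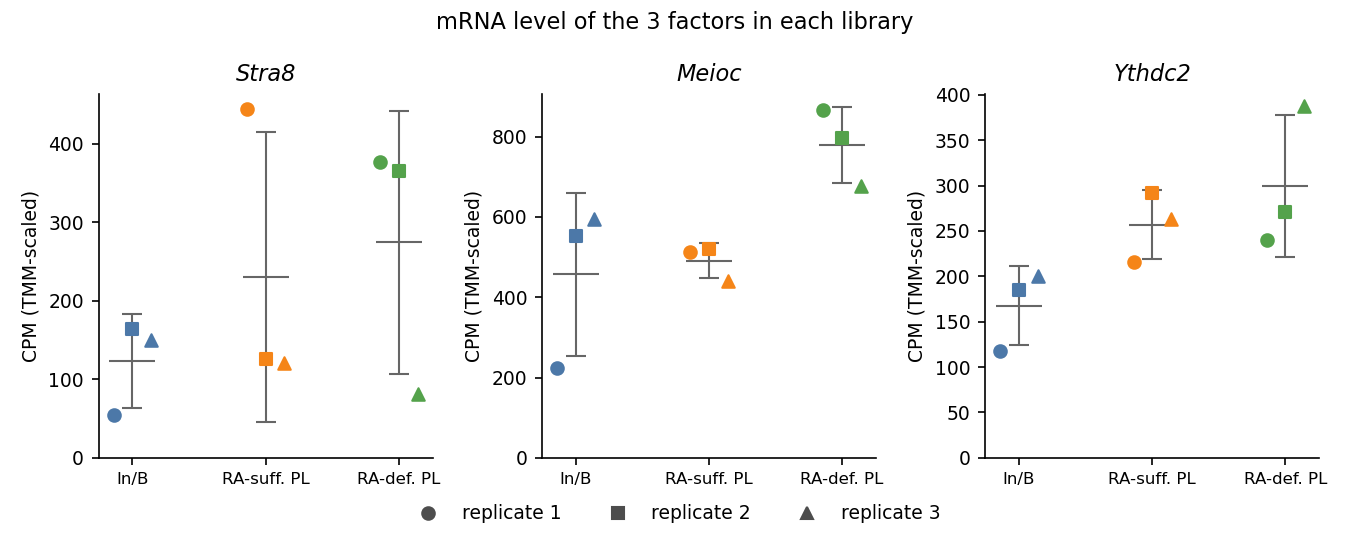
Level of Stra8, Meioc and Ythdc2 mRNA (CPM, linear axes from 0) in each library of the 3 groups, with the replicate number as the symbol; the long bar is the mean and the whiskers are the SD of 3 libraries. Stra8 was high (365 to 444 CPM) in RA-sufficient PL replicate 1 and RA-deficient PL replicates 1 and 2 only, whereas the Meioc values of RA-deficient PL (677 to 866 CPM) all lie above the other groups.

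Meioc was higher in each RA-deficient PL library than in any other library. It was at 224, 554 and 595 CPM in In/B replicates 1 to 3, with replicate 1 far below the others. RA-sufficient PL had 514, 519 and 440 CPM, inside the range of In/B. RA-deficient PL had 866, 796 and 677 CPM, and overlapped with neither group. The gene lies on chromosome 11 from 102525030 to 102543551 of mm9, on the + strand, and no other gene of GENCODE M1 overlaps it.

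The means of Meioc were 457 ± 203, 491 ± 44.2 and 779 ± 95.6 CPM (SD, n = 3). RA-deficient exceeded RA-sufficient PL by a log2 fold change of 0.66 (SE 0.14, interval 0.34 to 0.98), with an adjusted p of 0.0158 in edgeR. That is under the 2-fold change asked of a called gene, and 23.6% of the 15352 genes tested had an adjusted p this side of 0.05 in this comparison. It no longer passed on p without RA-sufficient PL replicate 2 (0.69, adjusted p 0.0552 in edgeR) or replicate 3 (0.56, 0.0623), or with all 9 libraries in a single edgeR fit (0.70, 0.0959). RA-deficient PL against In/B had a log2 fold change of 0.94 (SE 0.32, interval 0.21 to 1.68) with an edgeR adjusted p of 0.0503, just outside the threshold. RA-sufficient PL against In/B had 0.16 (SE 0.30, interval -0.53 to 0.86) with an edgeR adjusted p of 0.655, and -0.17 without In/B replicate 1.

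Ythdc2 was higher in every PL library than in any In/B library. It was at 118, 185 and 200 CPM in In/B replicates 1 to 3. RA-sufficient PL had 216, 292 and 263 CPM, and RA-deficient PL had 240, 271 and 388 CPM. The In/B libraries overlapped with neither PL group, while the PL groups overlapped each other. Replicate 3 of RA-deficient PL, the library with the least Stra8 of its group, had the most Ythdc2 of all 9.

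The means of Ythdc2 were 168 ± 43.8, 257 ± 38.2 and 299.6 ± 78.2 CPM (SD, n = 3). In RA-deficient PL against In/B the log2 fold change was 1.01 (SE 0.24, interval 0.45 to 1.56), with an adjusted p of 0.0131 in edgeR. It was the single call among the 3 factors in any comparison and lay at the edge of the fold threshold, under which it lay without In/B replicate 1 (0.81) or RA-deficient PL replicate 3 (0.78), and at 0.59 with the library that stood apart left out of each group, which ended the call. Of all genes in that comparison, 11.4% were called higher, and 36.7% had an adjusted p below 0.05 in either direction. In RA-sufficient PL against In/B it was 0.67 (SE 0.20, interval 0.22 to 1.13), with an edgeR adjusted p of 0.0158, under the 2-fold threshold, and with 0.0608 without RA-sufficient PL replicate 2. Here 26.1% of genes were called higher and 65.0% had an adjusted p below 0.05, so Ythdc2 passed a threshold that most genes passed. Between the PL groups it was 0.22 (SE 0.19, interval -0.23 to 0.67), with an edgeR adjusted p of 0.446. Ythdc2 spans 44988319 to 45049374 on the + strand of chromosome 18 in mm9, with no overlapping gene in GENCODE M1.

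**Figure D2:**
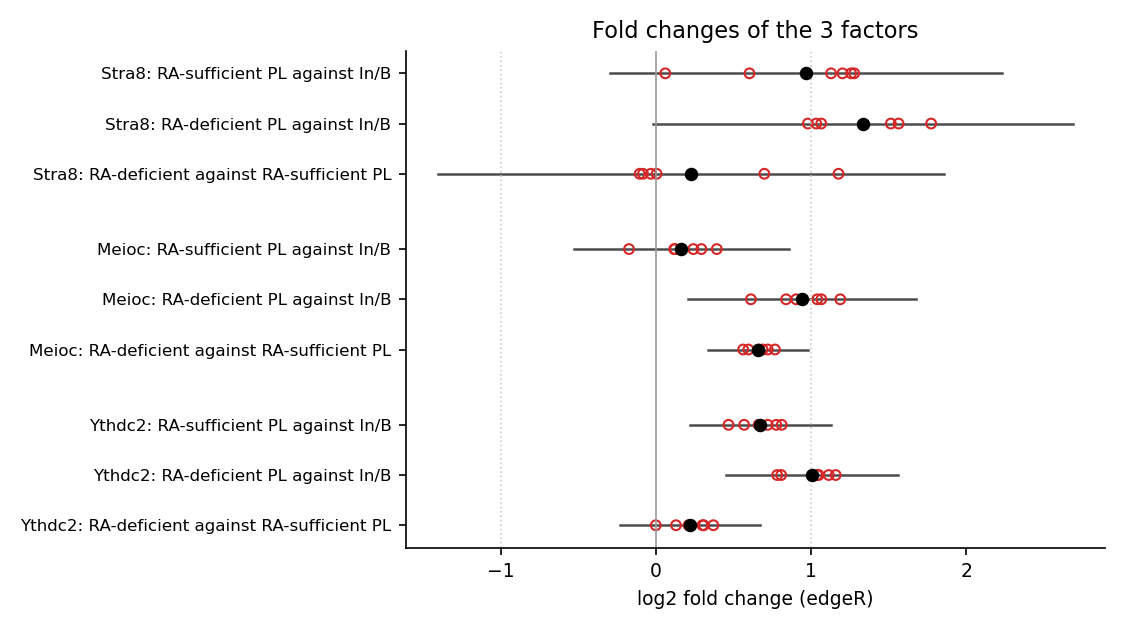
Log2 fold change of each factor in the 3 comparisons (black points, all libraries; lines, 95% interval from edgeR) with the value after leaving out each library in turn (red circles); dotted lines mark a 2-fold change. The Stra8 circles between the PL groups lie on both sides of 0 (-0.10 to 1.18), and those of Meioc stay between 0.56 and 0.77.

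The scaling moved the fold changes that involve RA-deficient PL. With library size alone in place of TMM, the median log2 fold change of all genes was -0.31 in RA-deficient PL against In/B and -0.27 between the PL groups (0.00 and -0.09 with TMM). Ythdc2 was then at 0.69 in RA-deficient PL against In/B, below the fold threshold, and Meioc at 0.63 there and at 0.48 between the PL groups.

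Per kilobase of exon sequence, the levels of the factors can be set beside each other. In In/B, Meioc was at 99.1 ± 44.1, Stra8 at 68.3 ± 33.2 and Ythdc2 at 26.6 ± 6.95 CPM per kb (SD, n = 3). In RA-sufficient PL, Meioc was at 106 ± 9.58, Stra8 at 128 ± 103 and Ythdc2 at 40.8 ± 6.06 CPM per kb. In RA-deficient PL, Meioc was at 169 ± 20.7, Stra8 at 152 ± 92.9 and Ythdc2 at 47.6 ± 12.4 CPM per kb. The means of Meioc and Stra8 differed by less than the SD of Stra8 in each group. Within libraries, Meioc exceeded Stra8 in all In/B replicates (48.4 against 30.2, 120 against 91.4 and 129 against 83.3 CPM per kb). In PL the order varied, with Stra8 above Meioc in RA-sufficient PL replicate 1 and RA-deficient PL replicates 1 and 2 only. Ythdc2 had the lowest mean in each group.

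Ratios within a library do not depend on its scaling. The ratio of Stra8 to Meioc (in CPM, without correction for length) was 0.243, 0.297 and 0.252 in In/B, 0.864, 0.243 and 0.274 in RA-sufficient PL and 0.435, 0.459 and 0.121 in RA-deficient PL. The ratio of Meioc to Ythdc2 was 1.9, 2.99 and 2.97 in In/B, 2.38, 1.78 and 1.67 in RA-sufficient PL and 3.61, 2.94 and 1.74 in RA-deficient PL. For none of the 3 ratios did the groups separate. In 9 exact two-sided permutation tests of the difference in mean log2 ratio, the lowest p was 0.2 (1 after Benjamini-Hochberg adjustment over the 9), where 3 libraries against 3 allow no less than 0.1.

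**Figure D3:**
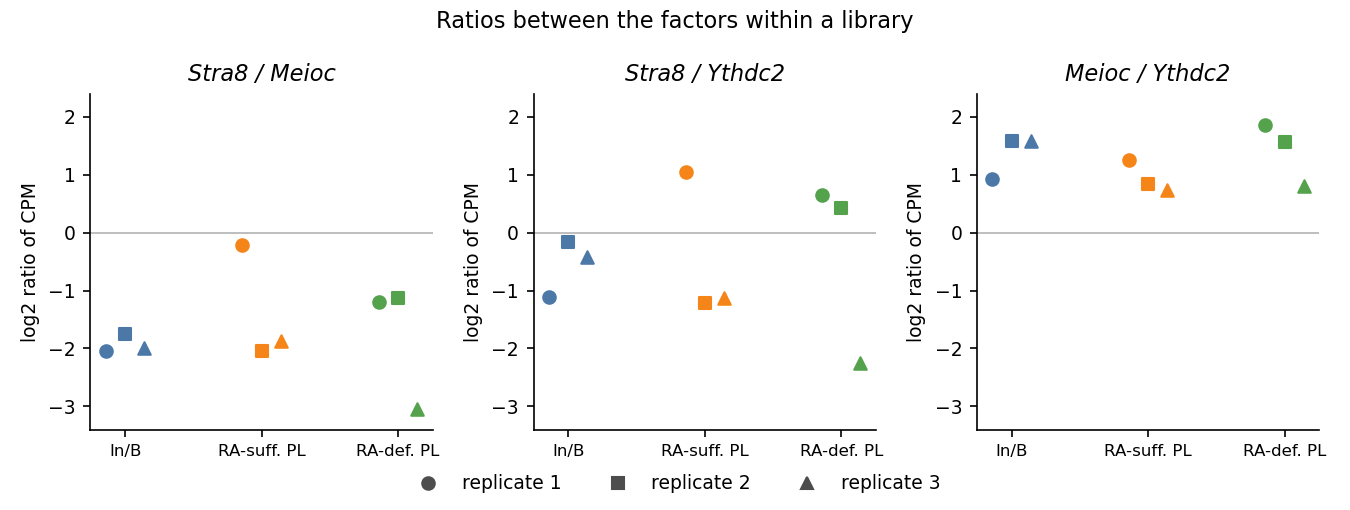
Log2 ratio of the CPM of 2 factors within each library, by group, with the replicate number as the symbol. RA-sufficient PL replicate 1 has the highest Stra8 to Meioc ratio (0.864 on a linear scale) and RA-deficient PL replicate 3 the lowest (0.121).

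The 3 measured partners of the factors had lower means in both PL groups than in In/B, and none was called. Rbm46, which binds MEIOC and YTHDC2, was at 171, 177 and 173 CPM in In/B, 105, 101 and 85.6 CPM in RA-sufficient PL and 130, 131 and 107 CPM in RA-deficient PL. Its log2 fold change against In/B was -0.78 in RA-sufficient PL (edgeR adjusted p 0.000517) and -0.33 in RA-deficient PL (0.0729), with no overlap between either PL group and In/B. Xrn1, an exoribonuclease that binds YTHDC2, was at 154 to 167 CPM in In/B, 77.9 to 94.5 CPM in RA-sufficient PL and 82.9 to 100.05 CPM in RA-deficient PL, with log2 fold changes of -0.84 and -0.63 (edgeR adjusted p 0.000415 and 0.00685). Rb1, the retinoblastoma protein that STRA8 binds, had log2 fold changes of -0.60 and -0.40 (edgeR adjusted p 0.0209 and 0.166). Fold changes below -1 at an adjusted p below 0.05 were called for 19.3% of all genes in RA-sufficient PL and 11.8% in RA-deficient PL against In/B. Between the PL groups none of these partners had an edgeR adjusted p below 0.164, and MEIOSIN was not analysed here.

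Ccna2, the cyclin A2 mRNA that MEIOC and YTHDC2 are known to lower, fell in both PL groups. It was at 323, 323 and 329 CPM in In/B, 35.9, 51.4 and 36.3 CPM in RA-sufficient PL and 81.8, 54.6 and 34.0 CPM in RA-deficient PL. The log2 fold changes against In/B were -2.92 (SE 0.16) and -2.35 (SE 0.29), with edgeR adjusted p of 1.1e-05 and 0.000671. Between the PL groups it was 0.46 (interval -0.31 to 1.23), with an edgeR adjusted p of 0.346. Across the PL libraries Ccna2 was lowest in RA-deficient PL replicate 3, where Ythdc2 was highest. It was nearly as low in RA-sufficient PL replicate 1 (35.9 CPM), which had the least Ythdc2 of the PL libraries (216 CPM). Within RA-sufficient PL, replicate 2 had the most of both (Ccna2 51.4 CPM, Ythdc2 292 CPM). A link between these levels was not tested.

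Of 40 mitotic cell cycle genes, 23 were called lower and 1 higher in RA-sufficient PL against In/B (median log2 fold change -1.27, against 0.04 over all genes), and 18 lower and 5 higher in RA-deficient PL (median -0.90, against 0.00). Over all genes, 19.3% were called lower and 26.1% higher in RA-sufficient PL, and 11.8% lower and 11.4% higher in RA-deficient PL. Aurkb, the Aurora B kinase, fell from 108 to 116 CPM to 7.80 to 14.6 and 3.17 to 8.09 CPM. Bub1, a spindle checkpoint kinase, rose in both, by 1.58 and 1.67, and the topoisomerase Top2a rose in RA-deficient PL, by 1.10. Of 32 genes of the G1/S transition and DNA replication, 14 were called lower and 3 higher in RA-sufficient PL (median -0.83), and 8 lower and 3 higher in RA-deficient PL (median -0.18). The 3 higher in RA-deficient PL, a share no larger than that over all genes, were the replication genes Mcm5 (1.46), Pole (1.62) and Rrm2 (1.30).

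Most of the meiotic prophase genes, among which STRA8 has its targets, were called higher in each PL group. Of 41 tested, 29 were called higher, 3 lower and 9 not in RA-sufficient PL against In/B (median log2 fold change 1.81), where 26.1% of all genes were called higher and 19.3% lower. In RA-deficient PL, 33 were called higher, 1 lower and 7 not (median 2.31), where the shares over all genes were 11.4% and 11.8%. Rad21l, a cohesin subunit, was at 12 to 15.1 CPM in In/B, 145 to 182 CPM in RA-sufficient PL and 207 to 247 CPM in RA-deficient PL. Sycp3, of the synaptonemal complex, was at 81.0 to 104 CPM, 403 to 612 CPM and 532 to 701 CPM. RA-deficient PL replicate 3, with the least Stra8 of the PL libraries, had the most of both genes. RA-sufficient PL replicate 1, with the most Stra8, had the most Rad21l of its group (182 CPM) and the least Sycp3 (403 CPM). The prophase list sum was highest in RA-deficient PL replicate 3 (20776 CPM against 16732 and 16326 CPM in its group). Among PL libraries it was lowest in RA-sufficient PL replicate 1 (11789 CPM against 16718 and 17081 CPM in its group). A link of these levels to Stra8 was not tested.

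Between the PL groups, 3 of the 41 prophase genes were called higher in RA-deficient PL and none lower by edgeR, where 4.47% of all genes were called higher and 11% lower. At an adjusted p below 0.05 alone there were 6, all higher, where 23.6% of all genes passed in either direction. The called genes were Mei1 (1.69), Trip13 (1.26) and Tex11 (1.08), which act in the formation of double-strand breaks, the remodelling of HORMA domain proteins and crossing over. Mei1 had 613, 630 and 418 CPM in RA-deficient PL against 217, 153 and 141 CPM in RA-sufficient PL. Without RA-deficient PL replicate 3, 7 prophase genes were called, and without the library that stood apart in each group, 10. Calls over all genes rose in these fits too, from 687 higher and 1696 lower of 15352 with all libraries. They were 1266 and 3218 of 15799 in the first fit and 1314 and 2918 of 15625 in the second.

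Rec8, a meiotic cohesin subunit gene and RA target, was lower on average in PL spermatocytes, without passing a test. It was at 17.5, 98.4 and 96.1 CPM in In/B, 45.3, 32.1 and 30.0 CPM in RA-sufficient PL and 29.4, 39.5 and 5.86 CPM in RA-deficient PL. The In/B library with low Rec8, replicate 1, and the RA-deficient PL library with low Rec8, replicate 3, were those with the least Stra8 of their groups, and the highest Rec8 of RA-sufficient PL was in its library with the most Stra8. The groups overlapped, and the log2 fold changes were -0.92, -1.32 and -0.53 for the 3 comparisons, with edgeR adjusted p of 0.153, 0.217 and 0.559.

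Several genes known to act on Stra8 were called between the PL groups. Of 15 regulators tested, 6 were called lower and 1 higher in RA-sufficient PL against In/B (median log2 fold change -0.57), 3 higher and 2 lower in RA-deficient PL (median 0.46), and 6 higher and none lower by edgeR in RA-deficient against RA-sufficient PL (median 0.71, against -0.09 over all genes). Over all genes, 26.1% were called higher and 19.3% lower in the first of these comparisons, 11.4% and 11.8% in the second, and 4.47% and 11% in the third. At an adjusted p below 0.05 alone, 9 regulators were higher and none lower between the PL groups, where 23.6% of all genes passed in either direction. The RA receptor gene Rarg was at 82.4 to 108 CPM in In/B, 19.7 to 23.4 CPM in RA-sufficient PL and 50.8 to 82.4 CPM in RA-deficient PL, 1.74 higher (log2, SE 0.23) in the last than in RA-sufficient PL, with an edgeR adjusted p of 0.00338. Its partner Rxra was higher there too, by 1.16, but without RA-sufficient PL replicate 1 or 3 or RA-deficient PL replicate 1 or 2 its edgeR adjusted p was 0.0749 to 0.0970. Dazl, an RNA-binding protein that licenses germ cells for meiosis, was at 1038 to 1264, 953 to 1198 and 1982 to 2362 CPM, with a log2 fold change between the PL groups of 0.99 (SE 0.12, edgeR adjusted p 0.00257).

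Dmrt1, which represses Stra8 in spermatogonia, was at 711, 538 and 534 CPM in In/B, 72.1, 76.8 and 72.8 CPM in RA-sufficient PL and 460, 485 and 111 CPM in RA-deficient PL. The log2 fold change between the PL groups was 2.25 (SE 0.50), with an edgeR adjusted p of 0.0190, and it missed 0.05 whenever a library other than RA-deficient PL replicate 3 was left out (at most 0.0773). The 2 RA-deficient libraries with high Dmrt1 were those with high Stra8, and the third had low levels of both. Kit, the stem cell factor receptor of differentiating spermatogonia and an RA target, divided the libraries likewise, with 561, 521 and 20.3 CPM in RA-deficient PL against 327 to 404 CPM in In/B and 20.2 to 41.0 CPM in RA-sufficient PL. Its log2 fold change between the PL groups was 3.54 (SE 1.0, edgeR adjusted p 0.0443), although the libraries overlapped, and the adjusted p likewise missed 0.05 without any single library other than RA-deficient PL replicate 3 (at most 0.142). RA-sufficient PL replicate 1, by contrast, combined high Stra8 with low Dmrt1 and Kit. The summed level of 7 markers of differentiating spermatogonia, Kit and Dmrt1 among them, was 1473 and 1448 CPM in RA-deficient PL replicates 1 and 2 and 387 CPM in replicate 3. It was 1341 to 1726 CPM in In/B and 339 to 416 CPM in RA-sufficient PL. Sohlh1 (60.8, 65.2 and 16.3 CPM in RA-deficient PL replicates 1 to 3) and Sohlh2 (203, 195 and 103 CPM) divided these libraries too. Dmrtb1 (93.5, 81.8 and 65.0 CPM), Rhox13 (76.9, 80.9 and 56.8 CPM) and Ccnd2 (18.4, 18.2 and 14.8 CPM) did so less. The part of the 7 markers in the Stra8 values was not tested. Leaving out single libraries moved the count of 6 called regulators between the PL groups to between 2 and 7, with 2 without RA-sufficient PL replicate 1 or without RA-deficient PL replicate 1.

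RA targets other than Stra8 were 6 called higher and 2 lower of 12 in RA-sufficient PL against In/B (median log2 fold change 1.19), none of 10 called by edgeR in the other comparison with In/B (nor with the adjusted p alone), and 1 higher and 5 lower of 11 between the PL groups (median -1.97). The shares over all genes were 26.1% higher and 19.3% lower in RA-sufficient PL against In/B and 4.47% and 11% between the PL groups. In RA-deficient PL against In/B they were 11.4% and 11.8%, and 36.7% of all genes passed on the adjusted p alone. The RA-degrading enzyme gene Cyp26a1 was at 0 to 0.447 CPM in In/B, 9.76 to 13.8 CPM in RA-sufficient PL and 0 to 1.18 CPM in RA-deficient PL. Stra6, a retinol transporter, was at 0.0559 to 3.70, 81.3 to 122 and 7.68 to 7.74 CPM, and Tgm2, a transglutaminase, at 1.40 to 3.06, 26.9 to 29.5 and 1.74 to 3.93 CPM. These genes were high in the libraries with high Sertoli cell markers, whose part was not tested, and the 3 RA-sufficient libraries with high levels of them had Stra8 of 121 to 444 CPM. The count of 6 between the PL groups ran from 2, without RA-sufficient PL replicate 2, to 7.

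**Figure D4:**
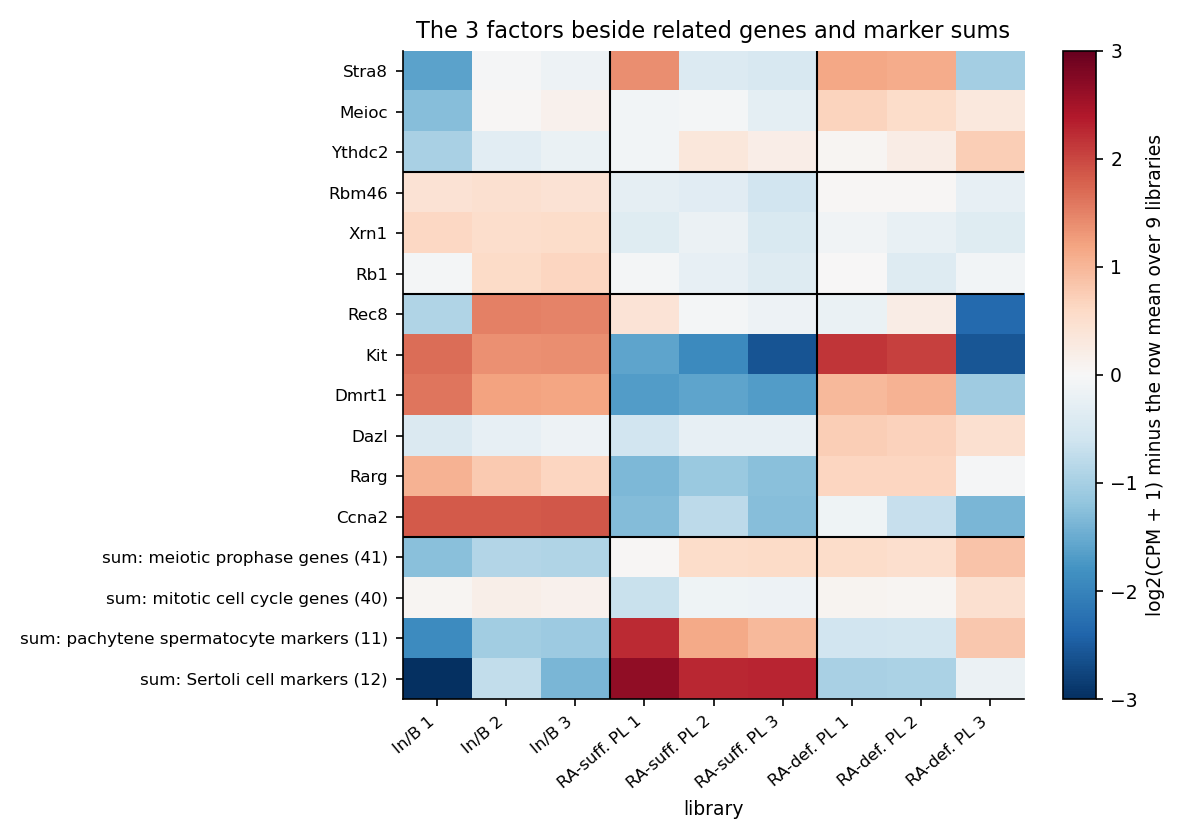
Heat map of log2(CPM + 1) minus the mean of each row over the 9 libraries, for the 3 factors, their measured partners, genes named in any case and summed lists (number of genes in brackets). Stra8 is high in the same RA-deficient libraries as Kit and Dmrt1 (replicates 1 and 2), the sum of prophase genes is highest in RA-deficient replicate 3, and Sertoli cell markers are high in all 3 RA-sufficient libraries.

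No other gene of the YTH family was called by edgeR in any comparison. Ythdc1, the nuclear reader of N6-methyladenosine, was at 212 to 237 CPM in In/B, 210 to 269 CPM in RA-sufficient PL and 285 to 369 CPM in RA-deficient PL. Ythdf1, Ythdf2 and Ythdf3 encode its cytoplasmic relatives. In RA-deficient PL against In/B, 3 had an adjusted p below 0.05, with log2 fold changes of 0.67 for Ythdc1, 0.48 for Ythdf2 and 0.50 for Ythdf3, against 1.01 for Ythdc2, where 36.7% of all genes passed on p. In the other comparisons none of the 4 had an edgeR adjusted p below 0.05. Of all genes, 65.0% passed on p in RA-sufficient PL against In/B and 23.6% between the PL groups.

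**Figure D5:**
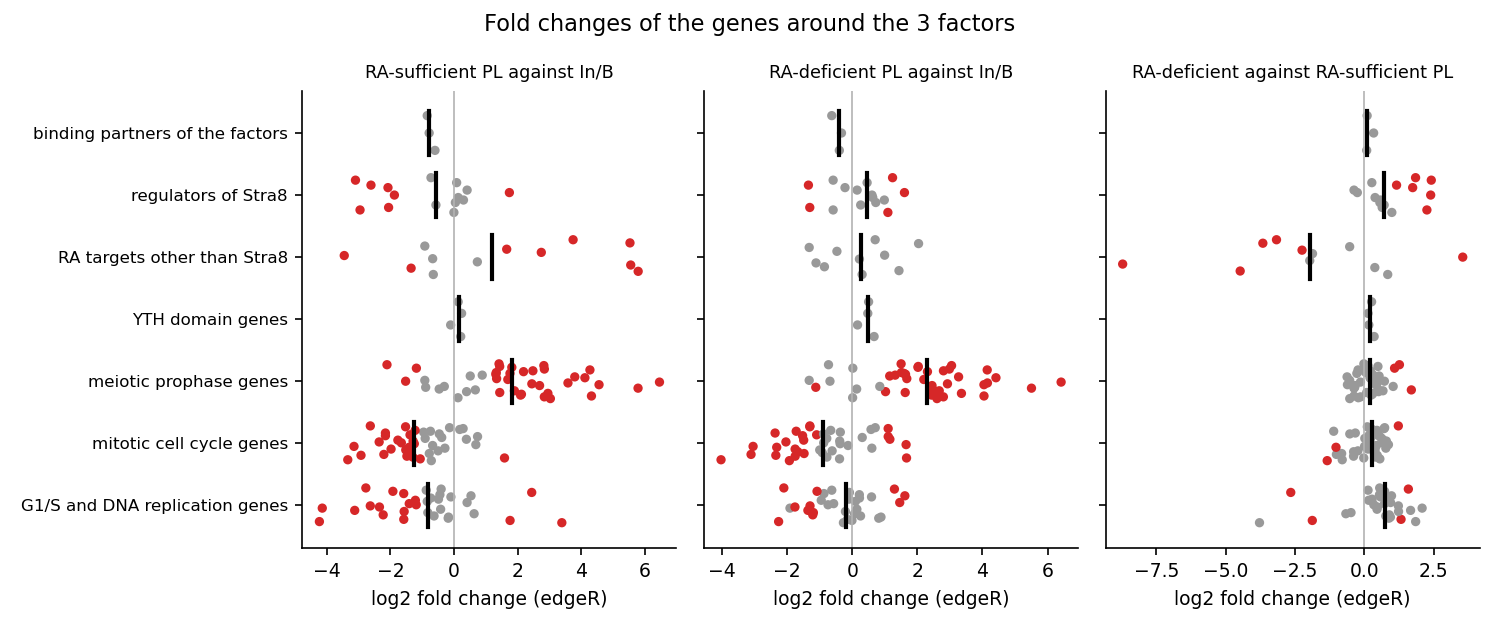
Log2 fold changes (edgeR) of the genes in 7 lists around the 3 factors, in the 3 comparisons; each point is a gene, red where called (more than 2-fold at an adjusted p below 0.05), and the black bar is the median of the list. Prophase genes lie to the right in both comparisons with In/B (medians 1.81 and 2.31) and near 0 between the PL groups (median 0.20), and no partner or YTH gene is called.

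Each factor had its own pattern over the 9 libraries. After centring log2 CPM on the mean of each gene, Stra8 itself deviated by 0.98 (root mean square over libraries), Meioc by 0.54 and Ythdc2 by 0.45. The root mean square difference was 0.39 between Meioc and Ythdc2, 0.74 between Stra8 and Meioc and 0.99 between Stra8 and Ythdc2. Among 9698 genes that averaged 10 CPM or more, the closest to Ythdc2 were Btaf1 (0.10), Pdik1l (0.12) and Trappc8 (0.14), and to Meioc they were Fam63b (0.15), Cpd (0.17) and Atad2 (0.18). Those closest to Stra8 were Mthfd1l (0.39), Syt7 (0.40) and Plxna2 (0.42), at a greater distance than for the others. Syt7 was at 54.1, 103 and 88.4 CPM in In/B, 256, 145 and 139 CPM in RA-sufficient PL and 233, 232 and 54.7 CPM in RA-deficient PL, high in the same 3 libraries as Stra8. The points of these comparisons share library, depth and scaling.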

How the data were processed

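The authors deposited raw counts of single-end reads per gene, without normalization. Per the labels and methods, reads of stranded mRNA libraries were trimmed with cutadapt 1.9, aligned to mm9 with STAR 2.5.2b and counted with featureCounts. The annotation and the strand setting of the counting are not given in the sources used here. All 9 columns were matched to samples by name, and 0 were left unused. Total counts ran from 12612959 to 27042274, so that 3 counts equal 0.111 to 0.238 CPM by library size.

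Pairs of groups were compared with edgeR 4.0.16 in R 4.3.3: TMM scaling, filterByExpr, quasi-likelihood test and Benjamini-Hochberg adjustment over all 15001, 14877 or 15352 genes tested. Calls required a change of more than 1 on the log2 scale in either direction with an adjusted p below 0.05. CPM were scaled by TMM over all 9 libraries. The fit was tested on simulated data. Groups and replicate numbers are those of the labels. The methods speak of 2 or 3 independent cell preparations, so libraries of a group may share one, and p-values measure the spread between these libraries only.

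The 3 factors and the 17 gene lists were chosen with earlier results of these data known. Of 232 listed genes, 227 had a row. Named were all members and partners, Ccna2, Rec8, Dazl, Dmrt1, Kit and Rarg, and from each further list up to 3 called genes per direction with the lowest p, not all of which are printed. The genes closest to each factor were named by the root mean square difference of centred log2 CPM. Rxra, Ythdc1, Ythdf1, Ythdf2, Ythdf3, Sox9, Amh, Wt1 and Ddx4 were named after their values were seen. So were Uchl1, Tex101, Mael, Sohlh1, Dmrtb1, Rhox13, Nr5a1, Vim, Col1a1, Gfra1, Id4 and Etv5. Coordinates and exon lengths are from GENCODE M1 (mm9), where Meioc is named Gm1564. Promoter windows come from RefSeq, and plots were made in Python 3.11.15 with matplotlib 3.10.9. Alternatives were RLE factors, library size alone, no filter, a minimum mean of 50 counts, 1 fit over all 9 libraries, a replicate block, DESeq2 1.42.0, the adjusted p alone and leaving out each library. Leaving out the library that stood apart in each group was added after the data were seen.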

Additional observations from a re-analysis of the deposited data

Results flagged for a closer look

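A direct test between the PL groups (edgeR, adjusted p below 0.05) means that the change from In/B differed between RA-sufficient and RA-deficient PL for the gene. Among the 3 factors this held for Meioc, with a log2 difference of 0.66. Beyond the factors, only genes named by the rules given above are listed here, not every listed gene that passed.

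Among the named genes that act on Stra8 the difference held for Dazl (0.99), Dmrt1 (2.25), Rarg (1.74), Rxra (1.16) and Sohlh2 (1.84), all higher in RA-deficient PL. For Dmrt1 the value rests on RA-deficient PL replicates 1 and 2, since replicate 3 lay close to RA-sufficient PL.

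Among RA targets, Kit was higher in RA-deficient PL by 3.54, while Tgm2 (-3.17), Cyp26a1 (-4.48) and Stra6 (-3.66) were lower there. Cyp26c1 had a mean of 2.49 CPM in RA-sufficient PL and no counts in RA-deficient PL, so no fold change is given.

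The prophase genes Trip13 (1.26), Tex11 (1.08) and Mei1 (1.69) were higher in RA-deficient PL. Named mitotic genes higher in RA-deficient PL were Foxm1 (0.66), Kif23 (0.65), Top2a (0.71) and Ube2c (1.22). Named G1/S and replication genes higher there were Cdc6 (0.89), Mcm5 (0.94), Pole (0.97), Rrm2 (1.58) and Ccnd3 (1.32). Lower there were Aurka (-1.34), Cdk1 (-1.03), Rbl2 (-2.66) and Ccnd2 (-1.88). In the full lists, 10 mitotic genes passed higher and 3 lower. For G1/S and replication genes it was 11 higher and 3 lower, where 23.6% of all genes passed in either direction. With single libraries left out, the adjusted p missed 0.05 in at least 1 fit for Meioc (0.0552 and 0.0623 without RA-sufficient PL replicate 2 and 3), Dmrt1, Kit, Rxra, Cyp26a1, Cyp26c1, Foxm1, Top2a, Cdc6, Cdk1, Ccnd3 and Ube2c, each with the direction kept.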

How the results depend on the processing

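Of 441 recomputed values for the 3 factors and for counts of called genes in 7 lists, 387 kept their direction and side of the adjusted p threshold or, for counts, stayed within 1.5 times. The 387 include counts that had little room to move, such as those of the partners, of which none was called in any fit. For Meioc in RA-deficient PL against In/B, whose edgeR adjusted p of 0.0503 missed the threshold, the log2 fold change passed on p at 0.92 with no filter, 0.97 with a minimum mean of 50 counts, 0.81 with all 9 libraries and 0.94 with DESeq2. Between the PL groups it was 0.70 with all 9 libraries and did not pass. With the library that stood apart left out of each group, Stra8 was at -0.34, 1.42 and 1.61 in RA-sufficient PL against In/B, RA-deficient PL against In/B and between the PL groups, Meioc at -0.25 in RA-sufficient PL against In/B and 0.71 in RA-deficient PL against In/B, and Ythdc2 at 0.59 in RA-deficient PL against In/B, which ended its call, and at -0.094 between the PL groups. The cause of these changes was not tested.

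Leaving out single libraries gave ranges of 0.98 to 1.77 for Stra8 in RA-deficient PL against In/B, -0.10 to 1.18 for Stra8 between the PL groups, with negative values of -0.08 and -0.03 without RA-sufficient PL replicate 2 and RA-deficient PL replicate 1, -0.17 to 0.39 for Meioc in RA-sufficient PL against In/B, 0.61 to 1.19 for Meioc in RA-deficient PL against In/B, 0.56 to 0.77 for Meioc between the PL groups, 0.47 to 0.81 for Ythdc2 in RA-sufficient PL against In/B and -0.0012 to 0.37 for Ythdc2 between the PL groups. Counts of called genes between the PL groups ranged from 2 to 7 for regulators of Stra8, 2 to 7 for RA targets and 3 to 7 for prophase genes. They ranged from 1 to 5 for mitotic genes and 3 to 12 for G1/S and replication genes. Over all genes, calls between the PL groups ranged from 313 to 1266 higher and from 840 to 3218 lower. For RA targets in RA-deficient PL against In/B the count ranged from 0 to 1.

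With the replicate number as a block, Meioc in RA-deficient PL against In/B was at 1.05 (edgeR adjusted p 0.0322) and no other call of the factors changed. Whether the numbers pair the libraries is not given. Deviations of same-numbered libraries from their group means correlated at -0.28 to 0.20, and those of libraries with unlike numbers at -0.23 to 0.25. With 3 libraries per group, 1 of which stands apart, these correlations cannot decide on a pairing. With the adjusted p alone, counts in RA-sufficient and RA-deficient PL against In/B were 3 and 1 for partners. For G1/S and replication genes they were 27 and 18. In RA-deficient PL against In/B there were 8 regulators and 3 YTH genes. Between the PL groups there were 6, 13 and 14 prophase, mitotic and G1/S genes. Over all genes, 65.0% passed on p in RA-sufficient PL and 36.7% in RA-deficient PL against In/B, and 23.6% between the PL groups. Library size alone gave 3 regulators in RA-deficient PL against In/B, and all 9 libraries or DESeq2 gave 9 G1/S genes between the PL groups. With the library that stood apart left out, 10 prophase, 6 mitotic and 13 G1/S genes were called between the PL groups and 2 RA targets in RA-deficient PL against In/B. Over all genes, library size alone split calls into 1123 higher and 2762 lower in RA-deficient PL against In/B (1693 and 1753 with TMM) and 426 and 2003 between the PL groups (687 and 1696), and leaving out the apart libraries gave 1314 and 2918 there. The depth was not the limit for the factors, whose counts were 973 to 21650.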

Other observations

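Other marker sums differed between the groups as well. The 7 Leydig cell markers summed to 10.9 to 23.4 CPM in In/B, 105 to 109.7 CPM in RA-sufficient PL and 18.4 to 34.6 CPM in RA-deficient PL. Most of the RA-sufficient sum was Nr5a1 (71.1 to 76.4 CPM). The 9 peritubular and stromal markers summed to 83.4 to 92.4, 180 to 219 and 127 to 139 CPM. Vim had 112 to 150 CPM of this in RA-sufficient PL, while Col1a1 was lowest there (48.2 to 70.8, 5.96 to 14.7 and 56.7 to 68.5 CPM). In RA-sufficient PL against In/B, 4 of 5 Leydig markers tested were called higher and 0 lower. Of 9 stromal markers, 6 were called higher and 1 lower, where the shares over all genes were 26.1% and 19.3%. The 9 macrophage and blood cell markers reached at most 15.8 CPM in any library and the 13 round spermatid markers at most 31.6 CPM. The 13 stem and progenitor markers summed to 596 to 912 CPM in In/B, with the most in replicate 1, the In/B library with the lowest levels of Stra8, Meioc and Ythdc2, to 277 to 429 CPM in RA-sufficient PL and to 588 to 723 CPM in RA-deficient PL.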
